A study of Mus musculus with 6 samples.

Results

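The Prss and Tmprss genes of the mouse encode serine proteases and a few inactive relatives, and their open chromatin was compared between Chd4 knockout and control β-cells, which make insulin in the pancreatic islet. Members were the RefSeq protein-coding genes of mm10 whose symbol begins with Prss or Tmprss and a digit, which gave 56 of 21887 genes, 39 Prss and 17 Tmprss. ATAC-seq was used, where Tn5 transposase inserts into accessible chromatin. Per the labels, mice of both groups received tamoxifen, their islets were dispersed, and Tomato-positive mature β-cells were flow-sorted. The label Chd4KO, called Chd4Db in the design text, marks 3 libraries and the label Control marks the other 3. Each library was made from 14000 to 45000 nuclei out of 27000 to 80000 collected cells. Chd4 encodes the nucleosome-moving ATPase of the NuRD complex. The promoter driving recombination, the Chd4 allele, the age of the mice and whether a library pools animals are not given in the labels used here. Peak lists do not check the deletion. Members were chosen by symbol, but the family itself was selected on the peak calls of these same libraries, that is on covered length and gained and lost regions in knockout against control. Their values therefore describe the family and test nothing.

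Serine proteases of this kind are made as inactive precursors, and cleavage of the precursor opens the active site, whose serine attacks the peptide bond. Trypsinogens are secreted by the acinar cells of the exocrine pancreas, which surround the islets, and are activated in the gut by enteropeptidase, the product of Tmprss15. Tmprss genes encode proteases anchored in the cell membrane, which act on neighboring receptors, channels and precursor proteins. Many Prss genes are used in the testis and in sperm, and others in skin, gut, thymus, brain or blood cells.

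For each gene, covered length counted the bases that the authors' peaks occupied in the gene span plus 10 kb on each side. It was scaled so that each library had the mean total, because the knockout lists held 119088 to 124125 peaks over 65817072 to 69138079 bp and the control lists 100109 to 110693 peaks over 58000976 to 63810875 bp. Covered length counts peak bases and not reads, and the read depth of each library is unknown. In bulk libraries, a peak present in more cells and a peak more open in each cell cannot be told apart. All 10 β-cell marker genes, Ins1, Ins2 and Mafa among them, had peaks, with summed scaled covered lengths of 38250 to 39330 bp in knockout and 42800 to 48200 bp in control libraries. Of 12 acinar marker genes, Cpa1, Pnlip and Amy2b, which encode digestive enzymes, were listed at 0 bp in all 6 libraries. The other 9 had peaks, and Ctrb1 and Cela2a were higher in the knockout, as given with the other markers at the end.

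Promoter windows of 3 genes with higher covered length in the knockout lay under peaks, and they are shown because knockout peaks reached bases there that control peaks did not. Each runs from 250 bases before to 50 bases after the start of the gene, 5′ to 3′ along the gene, as given by RefSeq for GRCm38.p6. Capitals mark bases under a peak in every knockout library and outside the peaks of all controls. The Prss38 window is chr11:59375604-59375903 on the minus strand, the Prss37 window chr6:40519459-40519758 on the minus strand and the Prss50 window chr9:110857714-110858013 on the plus strand.
Prss38: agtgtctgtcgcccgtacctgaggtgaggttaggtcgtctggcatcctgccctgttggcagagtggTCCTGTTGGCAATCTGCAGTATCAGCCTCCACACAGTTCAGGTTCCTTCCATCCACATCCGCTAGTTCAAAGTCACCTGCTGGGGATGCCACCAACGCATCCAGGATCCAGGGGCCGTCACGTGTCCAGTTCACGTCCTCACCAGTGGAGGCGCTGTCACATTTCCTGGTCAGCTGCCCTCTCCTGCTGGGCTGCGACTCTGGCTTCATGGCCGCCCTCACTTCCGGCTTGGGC
Prss37: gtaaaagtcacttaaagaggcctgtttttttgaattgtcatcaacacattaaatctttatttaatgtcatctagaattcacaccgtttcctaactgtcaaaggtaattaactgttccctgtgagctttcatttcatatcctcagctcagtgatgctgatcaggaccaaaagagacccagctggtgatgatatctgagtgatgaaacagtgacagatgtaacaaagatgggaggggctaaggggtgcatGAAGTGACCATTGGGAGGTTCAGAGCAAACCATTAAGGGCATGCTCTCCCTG
Prss50: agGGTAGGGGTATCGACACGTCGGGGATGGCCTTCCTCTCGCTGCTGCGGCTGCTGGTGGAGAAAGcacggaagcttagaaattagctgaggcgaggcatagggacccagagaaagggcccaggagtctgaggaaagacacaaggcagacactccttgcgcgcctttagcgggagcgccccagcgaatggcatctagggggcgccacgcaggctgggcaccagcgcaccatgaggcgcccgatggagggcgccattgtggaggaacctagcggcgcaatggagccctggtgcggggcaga
Of the 300 bases, 234 are in capitals for Prss38, 52 for Prss37 and 64 for Prss50. At Prss37 the knockout peaks covered the whole window and the peak of control library 3 covered 248 bases of it. At Prss50 all 6 libraries had a peak over the window, which covered 298 to 300 bases in knockout and 171 to 234 bases in control libraries. The edges of a peak are set by the peak caller and are not borders of a bound site.

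Most of the promoter windows given for the family lay outside peaks in these β-cells. Members without a window, Prss8, Prss22 and Tmprss4 among them, were not counted. The RefSeq table gave 50 windows for 41 members, 7 of them for Prss23, and 34 windows, or 68.0%, had no peak in any library, against 36.5% of 21263 windows of all genes. Peaks in all 6 libraries lay over 14 windows, 6 of them alternative starts of Prss23, which encodes a secreted protease. The other members with such windows were Prss12, Prss32, Prss35, Prss41, Prss50, Prss53 and Tmprss2. The Prss38 window was the 1 window of the family with a peak in all 3 knockout libraries and no control library, a pattern seen at 167 windows, or 0.785%, of all genes. No window of the family had the reverse pattern. The Prss12 window was covered less in the knockout, at 222, 163 and 222 bases in knockout libraries 1 to 3 and 300 bases in each control library. The letters TATAAA, searched on both strands, were found in 10.0% of member windows and 12.6% of all windows. TGANTCA was found in 8 of 50 member windows and 6.99% of all windows, and CANNTG in 86.0% of member windows and 69.0% of all windows. A window counted once however often or on whichever strand it held a motif, and windows of one gene overlap. The Prss38 and Prss37 windows hold CANNTG, and the Prss50 window holds none of the 3 motifs.

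More regions of the family were called open in knockout than in control β-cells. Peaks sharing at least 1 bp, whatever their library, formed 1 region, which was counted once. Of 152 regions in the territories, 19 were gained, meaning called in all 3 knockout and no control library, and 2 were lost, the reverse. Gained regions made up 12.5% of the family's regions and 10.3% of all regions of the series. Lost regions made up 1.32% of the family's and 2.62% of all regions. A further 79 regions were called in all 6 libraries and 52 had other patterns. Of these 52, 35 were called in more knockout than control libraries and 11 in more control than knockout libraries. Over all 61127 such regions of the series, 54.5% were in more knockout and 37.0% in more control libraries. Peaks in the joined territories covered 70859, 70571 and 68127 bp in knockout libraries 1 to 3 and 54861, 58219 and 55469 bp in control libraries 1 to 3, without scaling. With scaling the means were 65990 ± 950 bp in knockout and 59740 ± 1410 bp in control (SD, n = 3 each), a log2 ratio of 0.14, and the groups did not overlap. The number of family regions called was 127 ± 5.0 in knockout and 97.3 ± 4.9 in control libraries, and the covered length per called region was 550 ± 12 bp in knockout and 578 ± 11 bp in control libraries (SD, n = 3 each). The knockout lists as a whole held 1.17 times as many peaks as the control lists.

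**Figure D1:**
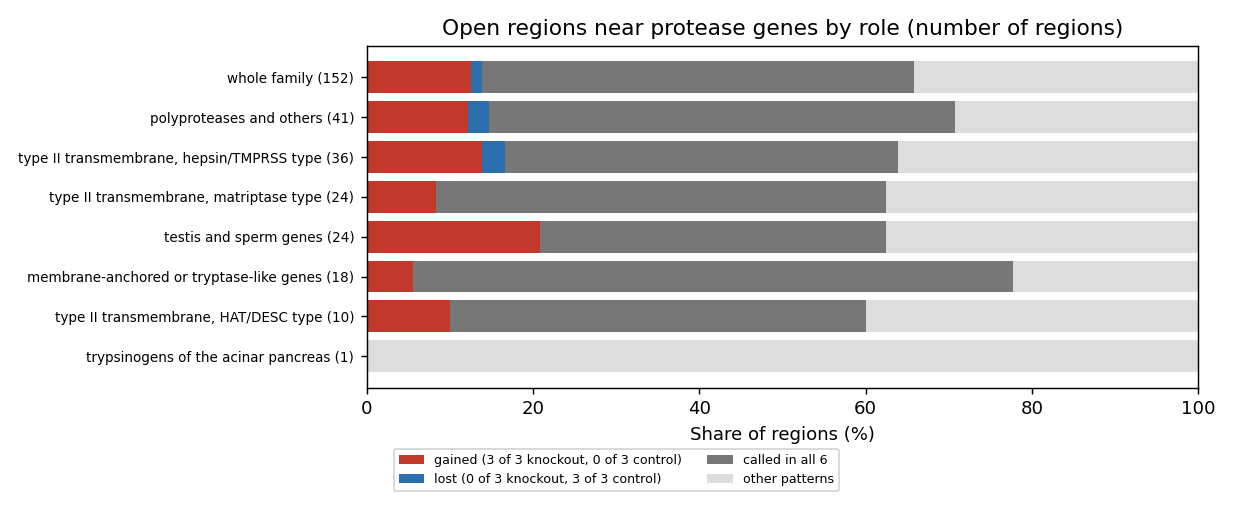
Share of open regions in percent, by role of the gene, that were gained, lost, called in all 6 libraries or of another pattern. The number of regions stands in brackets, and a region in the territories of 2 roles counts under both. Gained regions made up 20.8% for testis and sperm genes, or 5 of 24 regions. They made up 12.5% for the whole family, where 152 regions were counted, and 10.3% of all regions of the series. By gene, 31.25% of testis and sperm members had a gained region, where 33.0% of all genes had one.

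Of the 56 members, 44 had a mean covered length of at least 300 bp and entered a limma fit with all genes, and 12 did not. In that fit 9 members were higher in the knockout, where 7.57% of all 17711 genes were (Benjamini-Hochberg adjusted p under 0.05), and 0 were lower, where 14.6% were. At an unadjusted p under 0.05 the same limma fit had 15 members higher and 1 lower, Prss8. The share of all genes at this unadjusted threshold was not counted. Knockout values exceeded control values in every pairing at 16 of the 44 (13.1% of all genes) and fell short in every pairing at 4 (32.7% of all genes). Without scaling these counts were 22 (28.5% of all genes) and 1 (9.68%). The median log2 fold change was 0.13 over the 44 members and -0.09 over all genes, and without scaling 0.27 and 0.06, a shift of -0.15 for all genes. A gene with peaks in knockout libraries alone can reach the minimum only through that group, so nothing is read from these counts. The family was chosen with this contrast known. The 9 genes lie in 6 separate loci, since the 56 territories join into 39. Leaving out knockout library 1 or 2 left 3 members higher, and leaving out any 1 of the other libraries gave 6 to 8. Prss35 was added without control library 1 and Prss44 without knockout library 3. The calls of 3 of the 9, Prss43, Prss38 and Tmprss13, were kept whichever library was left out. None of these 3 was called with the 50000 strongest peaks of each list. Prss38 and Tmprss13 were not called with flanks of 50 kb, nor Prss43 with flanks of 2 kb. Prss50 was not called without control library 3 or any 1 knockout library, Prss46 without control library 2 or 3 or knockout library 1 or 2, and Tmprss4 without knockout library 1 or 2. Prss45 was below the minimum without any 1 knockout library.

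**Figure D2:**
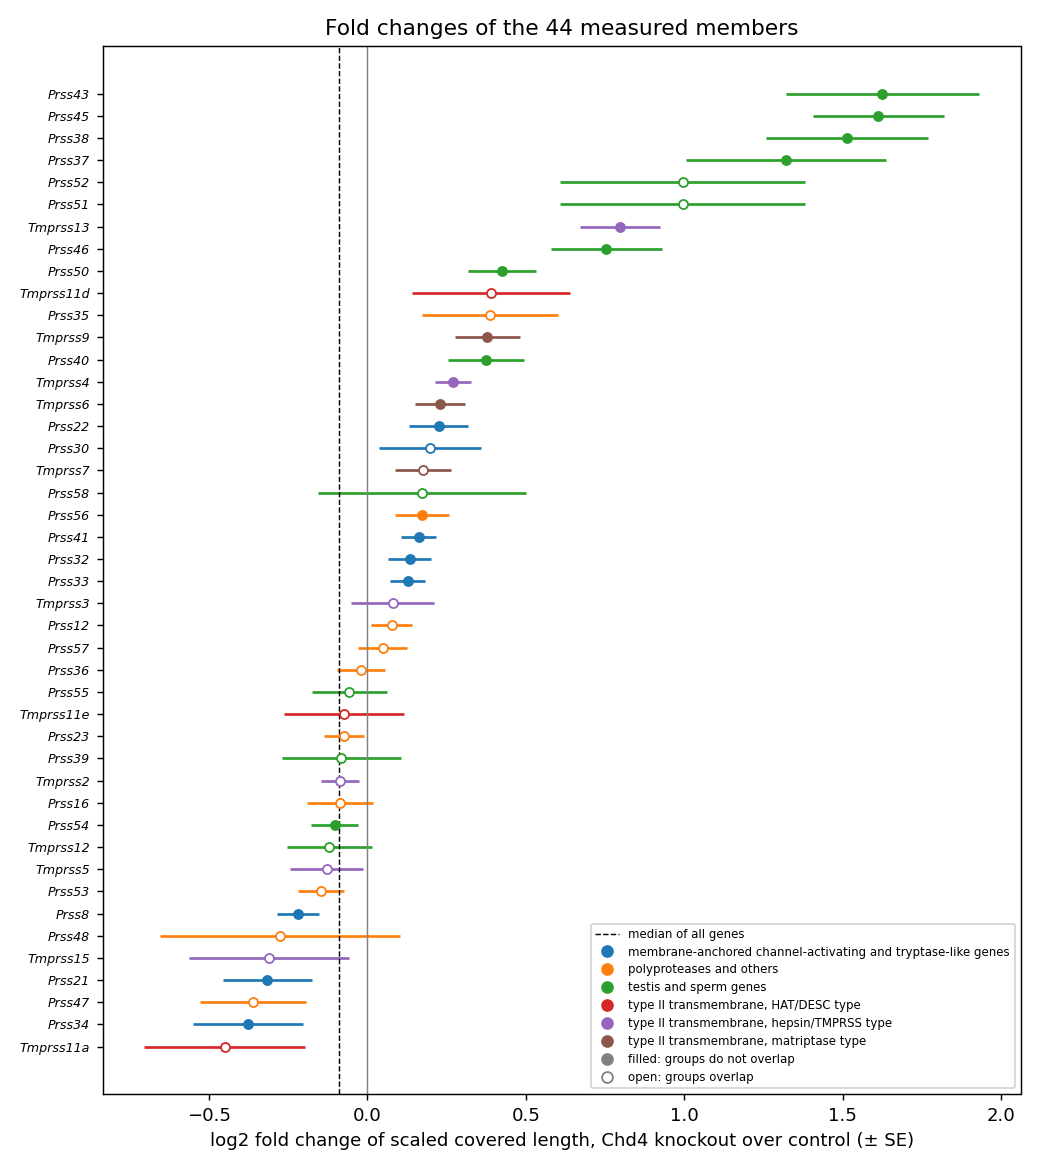
Log2 fold change of scaled covered length, Chd4 knockout over control, with its standard error, for the 44 members that entered the fit, colored by role. Filled points mark the 20 members whose groups do not overlap, and the dashed line is the median of all genes at -0.09. Prss45 had 0 bp listed in each control library, so its point depends on the 300 bp added before the log. So do the points of Prss43, Prss38, Prss37, Prss51 and Prss52, which had 0 bp in most control libraries. These testis and sperm genes stand at the upper end. They pass the minimum of 300 bp mostly through knockout peaks, so nothing is read from their place.

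Testis and sperm genes formed the largest group, which leaves out the testisin gene Prss21, listed with the membrane-anchored genes. Of the group's 16 members, 6 were among the 9 higher genes (7.57% of all genes), 4 of them in a single locus. Prss43, Prss45, Prss38 and Prss37 pass the minimum of 300 bp mostly through knockout peaks, so nothing is read from this count. A cluster on chromosome 9 holds 6 of them in a row, Prss42, Prss44, Prss43, Prss45, Prss46 and Prss50, all used in the testis. Its joined territory (110787248 to 110874629) had 3343, 3677 and 2635 scaled bp in knockout libraries 1 to 3, against 1540, 1342 and 1438 bp in control libraries 1 to 3. The groups did not overlap. The cluster held 8 regions, 2 of them gained and 3 called in all 6 libraries.

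The widest gained region of the family lay between Prss43 and Prss45 (chromosome 9, 110832918 to 110833593), 995 bp from the nearer end of Prss45. Its peaks covered 560, 676 and 532 bp in knockout libraries 1 to 3 and 0 bp in each control library. They stood at percentiles 81.5, 80.1 and 76.9 of the authors' −log10 q within their own lists. Prss43 (110826690 to 110831507) had 977, 1103 and 515 scaled bp in knockout cells, against 0, 253 and 0 bp in control libraries, a log2 fold change of 1.62 ± 0.30 (SE). Fold changes of genes at or near 0 bp in control libraries depend on the 300 bp added before the log, and Prss43 had 2.61 with 100 bp and 0.78 with 1000 bp. Prss45 (110834588 to 110841310) had 529, 843 and 515 bp in knockout cells, and had 0 bp listed in each control library. Both genes draw on this region, so their values are not independent.

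A second region of the cluster, over the start of Prss50, was open in all 6 libraries but wider in the knockout (110857619 to 110858331). Its peaks covered 694, 713 and 563 bp in knockout libraries 1 to 3 and 310, 200 and 291 bp in control libraries 1 to 3, without scaling. Within their own lists these peaks stood at percentiles 83.0, 86.4 and 81.7 in knockout cells and at 19.3, 5.88 and 12.9 in control cells. Prss50, whose human product TSP50 carries a threonine in place of the catalytic serine, had 1910 ± 38 bp in knockout cells, against 1356 ± 236 bp in control cells (SD, n = 3 each), a log2 fold change of 0.43 ± 0.11 (SE). Prss46, which shares this region, had 656, 878 and 545 bp in knockout cells, against 341, 200 and 319 bp in control cells, a log2 fold change of 0.75 ± 0.18. A further region inside the neighboring gene Tmie (110873558 to 110874634) covered 1056 ± 12 bp in knockout cells, against 527 ± 62 bp in control cells without scaling (SD, n = 3 each), and it counts toward Prss50. Another shared region inside Tmie (110870933 to 110871566) also counts toward Prss50 and was narrower in every knockout library than in any control library. Without scaling its peaks covered 296, 321 and 318 bp in knockout cells, against 634, 346 and 443 bp in control cells.

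At the other end of the cluster, a gained region of 280 bp lay over the lower end of Prss42 (110797075 to 110797354). Prss42 had 235, 230 and 252 scaled bp in knockout cells, and had 0 bp listed in each control library, below the minimum for the fit. Prss44 had 637, 684 and 0 bp in knockout cells, against 0, 253 and 0 bp in control cells, so its groups overlapped. With no filter on low values the number of higher members was again 9. Prss42, Tmprss11c and Prss41 were then called, while Prss37, Prss50 and Tmprss9 were not.

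**Figure D3:**
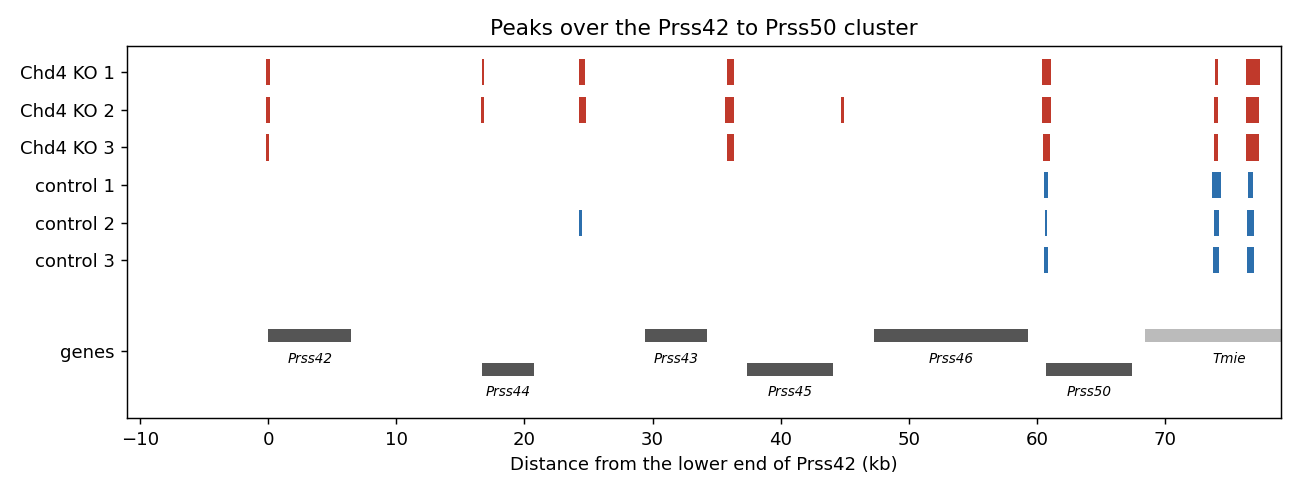
Peaks of each library (rows) over the cluster from Prss42 to Prss50 on chromosome 9, with gene spans below; the axis gives the distance from the lower end of Prss42 in kb. Knockout libraries have peaks at Prss42 and between Prss43 and Prss45 where control libraries have none, and wider peaks at the start of Prss50.

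Among testis genes elsewhere, Prss38 and Prss37 had the largest differences. Prss38 (chromosome 11, 59371426 to 59375653), also called marapsin 2, had 864, 776 and 559 scaled bp in knockout libraries 1 to 3 and 0, 213 and 0 bp in control libraries 1 to 3 (log2 fold change 1.51 ± 0.26 SE, or 2.49 with 100 bp added and 0.70 with 1000 bp). It held 2 gained regions, one inside the gene (59373637 to 59373976) and one over the promoter window printed above (59375537 to 59375856). Peaks of the first covered 340, 304 and 310 bp in the knockout libraries, and those of the second 301, 320 and 267 bp. Prss37 (chromosome 6, 40514820 to 40519535), needed in mice for sperm to reach and bind the egg, had 651, 606 and 784 bp in knockout cells, against 0, 0 and 365 bp in control cells (log2 fold change 1.32 ± 0.32 SE, or 2.22 with 100 bp added and 0.60 with 1000 bp). Its single region (40519325 to 40520134) lay over its start and was called in all 3 knockout libraries at percentiles 57.2, 54.9 and 54.3, and in control library 3 at percentile 1.49. Because that control has a peak, the region is not counted as gained. Without control library 1, without control library 2 or without any 1 knockout library Prss37 was not called in the limma fit.

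The strongest gained peak near the family lay 8756 bp from Prss40, an acrosomal protease gene of sperm, and is nearest to another gene, Amer3 (chromosome 1, 34569760 to 34570344). Its peaks covered 570, 474 and 556 bp in the knockout libraries, at percentiles 93.7, 96.0 and 94.6 of their lists. Prss40 had 1053, 912 and 1190 scaled bp in knockout cells, against 870, 708 and 649 bp in control cells, a log2 fold change of 0.38 ± 0.12 (SE), which turned to -0.30 with flanks of 2 kb and -0.09 with 50 kb. Prss51 and Prss52 share their only region, called in all 3 knockout libraries and control library 3, and their groups overlapped. Prss54, which encodes an inactive relative, had 1122 ± 56 bp in knockout cells, against 1227 ± 27 bp in control cells (SD, n = 3 each), all scaled knockout values below. Without scaling its groups overlapped and its log2 fold change of -0.10 turned to 0.03. Prss39, Prss55, Prss58 and Tmprss12 had overlapping groups and log2 fold changes of -0.12 to 0.17.

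**Figure D4:**
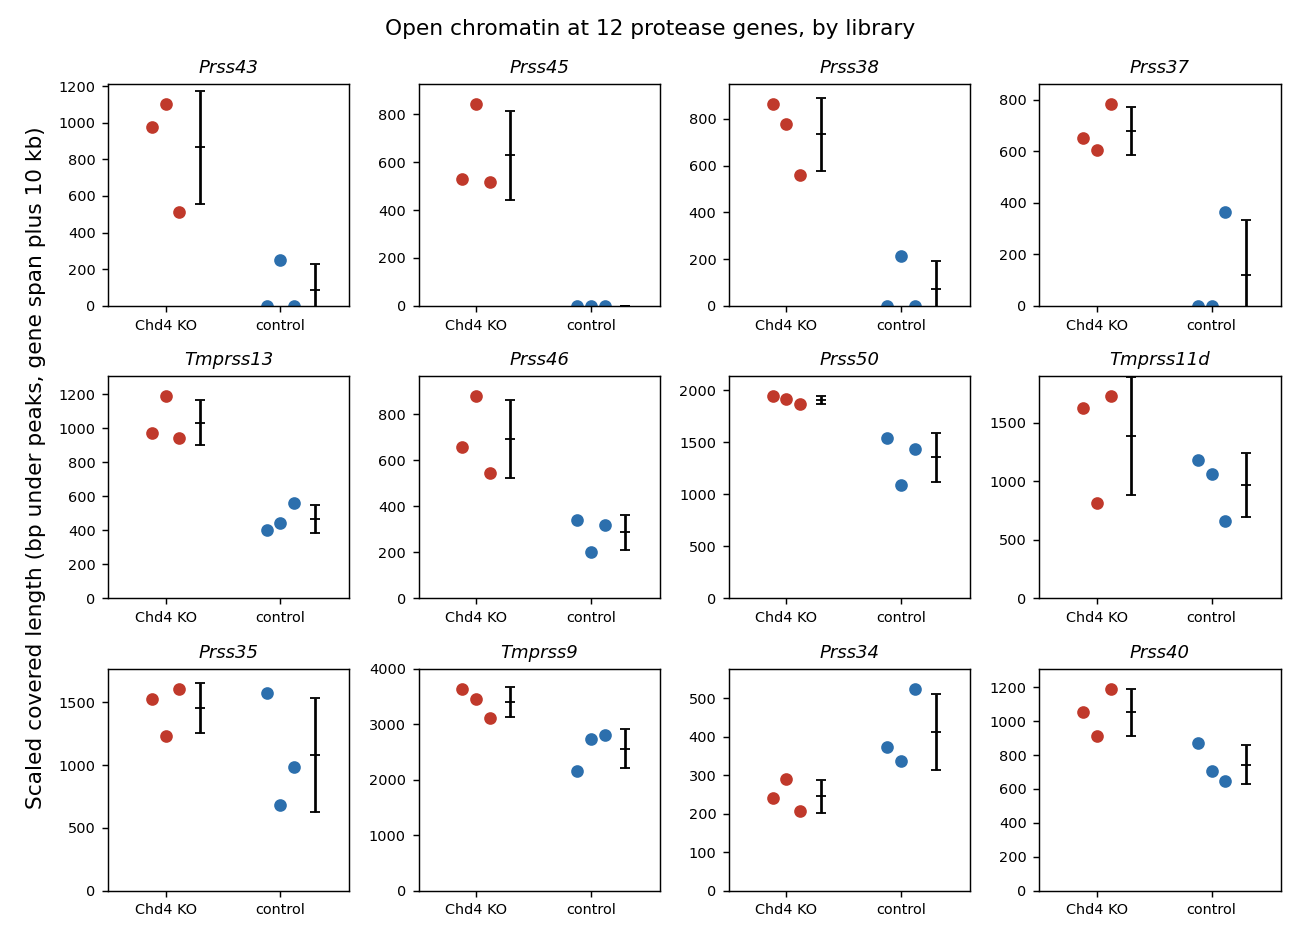
Scaled covered length in bp in each library for the 12 members with the largest absolute log2 fold change among those with a gained or lost region or with groups that do not overlap. Points are libraries 1 to 3 of each group from left to right, and bars show the mean and SD (n = 3 each). Prss43, Prss45, Prss38 and Prss37 were at 0 bp in at least 2 control libraries, and Prss34 is the 1 gene of the 12 that was lower in the knockout.

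Among membrane-anchored Tmprss proteases of the hepsin/TMPRSS type, Tmprss13 and Tmprss4 were higher in the knockout. Tmprss13 (chromosome 9, 45318988 to 45347581), a protease of the skin barrier, had 970, 1187 and 942 scaled bp in knockout libraries 1 to 3 and 401, 441 and 560 bp in control libraries 1 to 3. The groups did not overlap, and the log2 fold change was 0.80 ± 0.13 (SE). It held 2 gained regions, one inside the gene (45341278 to 45341613) and one 1739 bp outside (45349320 to 45349693), and 1 region called in all 6 libraries. Its log2 fold change was -0.52 when each list was cut to the 50000 strongest peaks.

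Tmprss4 (chromosome 9, 45172726 to 45204119), also called CAP2, a channel-activating protease, had 4416, 4447 and 4383 scaled bp in knockout cells, against 3619, 3452 and 3769 bp in control cells. Its log2 fold change was 0.27 ± 0.06 (SE), and the groups did not overlap. A region 1029 bp from the gene was open in all 6 libraries but wider in the knockout (45171065 to 45171697). Its peaks covered 629, 633 and 625 bp in the knockout at percentiles 99.2, 98.8 and 95.8 of their lists, against 301, 388 and 438 bp in control cells at percentiles 3.54, 19.5 and 40.7. The lists differ in length, so these ranks do not measure a change between groups, here or at Prss50. With flanks of 50 kb or the 50000 strongest peaks Tmprss4 was not called. The 1 gained region of Tmprss4 (45205237 to 45205512) lay inside the neighboring gene BC049352.

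Tmprss2, an androgen-responsive protease gene best known for cleaving viral spike proteins, was open at its start in all 6 libraries and held both gained and lost regions inside the gene. The gene (chromosome 16, 97564682 to 97659541) held 12 regions in its territory, 2 gained (97568713 to 97569025 and 97578940 to 97579464), 1 lost (97594033 to 97594657) and 5 called in all 6 libraries. The lost region covered 0 bp in each knockout library and 529, 608 and 584 bp in control libraries 1 to 3, at percentiles 51.1, 53.3 and 58.0 of the control lists. Tmprss2 had 4504, 4197 and 4079 scaled bp in knockout cells, against 4574, 4519 and 4504 bp in control cells, with a log2 fold change of -0.09 ± 0.06 (SE), which was 0.08 without scaling. With the 50000 strongest peaks it was -0.39, and limma called Tmprss2 lower, where 9.36% of all genes were lower. Tmprss15, the enteropeptidase gene, had 988 ± 494 bp in knockout cells, against 1226 ± 190 bp in control cells (SD, n = 3 each), and the groups overlapped. The groups also overlapped at Tmprss3, mutated in human deafness, and at Tmprss5, with log2 fold changes of 0.08 and -0.13.

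Among the matriptase-type genes, Tmprss9 and Tmprss6 had higher covered length in every knockout library. Tmprss9 (chromosome 10, 80871117 to 80899495), which encodes a protein with several protease domains, had 3639, 3457 and 3116 scaled bp in knockout cells, against 2151, 2732 and 2799 bp in control cells, a log2 fold change of 0.38 ± 0.10 (SE). It held 1 gained region (80890428 to 80890904) and a shared region that covered 640 ± 48 bp in knockout cells, against 377 ± 61 bp in control cells without scaling (SD, n = 3 each; 80886983 to 80887682). Leaving out any 1 library other than knockout library 3 ended its call in the fit.

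Tmprss6 (chromosome 15, 78439667 to 78468648), a protease of the liver that restrains the iron hormone hepcidin, had 3085, 2697 and 2830 scaled bp in knockout cells, against 2566, 2187 and 2461 bp in control cells. Its log2 fold change was 0.23 ± 0.08 (SE), and with the 50000 strongest peaks it was -0.28. Neighboring shared regions inside the gene went opposite ways. One (78449823 to 78450530) covered 612 ± 32 bp in knockout cells, against 296 ± 68 bp in control cells, and the other (78447514 to 78448573) covered 774 ± 5.5 bp in knockout cells, against 1051 ± 7.8 bp in control cells, both without scaling (SD, n = 3 each). A gained region lay inside the gene as well (78456052 to 78456468). Tmprss7 had overlapping groups and a log2 fold change of 0.18.

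The HAT/DESC-type genes, which form a cluster on chromosome 5 and act in airway and other epithelia, had few peaks. Of 7 genes, Tmprss11f and Tmprss11g were listed at 0 bp in all 6 libraries, and Tmprss11b had a peak in knockout library 3 and control library 2 alone. The 1 gained region (86293780 to 86294199) lay between Tmprss11c and Tmprss11d and covered 404 ± 14 bp in the knockout libraries without scaling (SD, n = 3), at percentiles 52.7, 54.9 and 70.3. It was the only region of Tmprss11c, which had 382 ± 23 scaled bp in the knockout (SD, n = 3) and had 0 bp listed in each control library. Tmprss11d had 1629, 813 and 1727 bp in knockout cells, against 1180, 1063 and 660 bp in control cells, so its groups overlapped. Tmprss11a and Tmprss11e overlapped too, with log2 fold changes of -0.45 ± 0.25 and -0.07 ± 0.19 (SE).

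Membrane-anchored and tryptase-like genes, many in clusters on chromosome 17, held 13 regions called in all 6 libraries and 1 gained region, and went both ways by small amounts. Prss8, which encodes prostasin, an activator of the epithelial sodium channel, had 3204, 3161 and 2851 scaled bp in knockout cells, against 3541, 3538 and 3789 bp in control cells (log2 fold change -0.22 ± 0.07 SE, and 0.14 with the 50000 strongest peaks). Prss34, a mast cell and basophil tryptase gene, had 240, 290 and 206 bp in knockout cells, against 373, 338 and 524 bp in control cells (log2 fold change -0.38 ± 0.17). Prss21, which encodes the membrane-anchored testisin, had 793 ± 186 bp in knockout cells, against 1049 ± 92 bp in control cells (SD, n = 3 each; log2 fold change -0.32 ± 0.14 SE). In each of these 3 genes the highest scaled knockout value was below the lowest scaled control value. Without scaling the groups overlapped at Prss8 and Prss21, and Prss8 had a log2 fold change of -0.06.

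Prss41, Prss33, Prss32 and Prss22 had no overlap between groups and higher knockout values, with log2 fold changes of 0.13 to 0.23. Prss41, Prss33 and Prss32 share a region over the start of Prss41 (chromosome 17, 23843270 to 23844509). Its peaks covered 1239, 1235 and 1118 bp in knockout cells, against 698, 781 and 655 bp in control cells without scaling. With flanks of 50 kb Prss33 had -0.06 and Prss41 -0.05. At Prss22, a tryptase gene, a gained region 6831 bp from the gene (24007553 to 24008219) stood beside a shared region at the gene end that covered 697 ± 81 bp in knockout cells, against 945 ± 99 bp in control cells without scaling (SD, n = 3 each; 23993035 to 23994108). Its log2 fold change of 0.22 ± 0.09 turned to -0.45 with flanks of 2 kb, where limma called Prss22 lower. It was -0.14 with 50 kb and -0.33 with the 50000 strongest peaks. Without scaling limma called Prss22 higher. Prss27, Prss28 and Prss29 were listed at 0 bp in all 6 libraries, and Prss30 had overlapping groups.

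Of the remaining Prss genes, secreted proteases, polyproteases and others, 9 of 10 had a region called in all 6 libraries in their territory (79.4% of all genes have one). Such a region need not lie at the gene. The only region of Prss47 lay 9179 bp away, inside Spata31d1c. No member of this set was among the 9 higher genes, where 7.57% of all genes were higher. Without scaling, Prss12 and Prss56 were called higher, as were Prss12 with flanks of 2 kb, Prss56 with 50 kb and Prss57 with the 50000 strongest peaks. Prss16 was called lower with 2 kb and with 50 kb, Prss36 with 50 kb, and Prss48 with 50 kb or without control library 1. Prss12, which encodes neurotrypsin, a synaptic protease that cleaves agrin, had 3614 ± 60 scaled bp in knockout cells, against 3415 ± 231 bp in control cells (SD, n = 3 each). It held 3 gained regions, 2 inside the gene (chromosome 3, 123462307 to 123462634 and 123501808 to 123502252) and 1 outside (123514918 to 123515198). One of the strongest shared regions of the family, 1395 bp from its upper end (123507997 to 123509380), covered 1122, 1119 and 1132 bp in knockout cells, against 1371, 1372 and 1372 bp in control cells without scaling, at percentiles of 99.1 to 99.7 in every list. Prss16, which encodes a thymus-specific protease, had the other lost region (chromosome 13, 21995537 to 21995822), at percentiles 3.54, 13.8 and 3.85 of the control lists. Prss36, a polyserase gene, and Prss35 held 1 gained region each, with log2 fold changes of -0.02 and 0.39 ± 0.22 (SE) and overlapping groups. The value of Prss35 was 0.64 without control library 1 and 0.17 without control library 2. Without control library 1 limma called Prss35 higher, where 5.42% of all genes were higher.

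Prss56, a gene of eye growth, had 1929 ± 65 scaled bp in knockout cells, against 1685 ± 197 bp in control cells (SD, n = 3 each), all knockout values above, with a log2 fold change of 0.17 ± 0.09 (SE). A shared region inside it (chromosome 1, 87184493 to 87185198) covered 704, 693 and 695 bp in knockout cells, against 498, 445 and 447 bp in control cells without scaling. Prss57, which encodes a protease of neutrophil granules, had overlapping groups and a log2 fold change of 0.05. One region of its territory, inside the gene Palm (chromosome 10, 79803573 to 79804397), covered 779 ± 76 bp in knockout cells, against 417 ± 12 bp in control cells without scaling (SD, n = 3 each). Prss23, Prss47, Prss48 and Prss53 had overlapping groups and log2 fold changes of -0.36 to -0.07.

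The pancreatic trypsinogen genes among the members, Prss1, Prss2 and Prss3, had almost no peaks. Prss1 and Prss3, which encode trypsinogens of the acinar cell, were listed at 0 bp in all 6 libraries, and Prss2 had 334 scaled bp in knockout library 1 and 0 bp in the other 5. That peak (chromosome 6, 41532720 to 41533072) lay at percentile 5.31 of its list. Trypsinogen genes are near copies of each other, and the labels do not say how reads that match several places were treated, so a closed gene and a gene without usable reads cannot be told apart. In all, 7 of 56 members, or 12.5%, had no peak in any library, where 15.1% of all genes had none. Another 3 members, Prss42, Prss45 and Tmprss11c, had peaks in all 3 knockout libraries and none in any control library, a pattern of 1.04% of all genes.

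By gene, 16 of the 56 members, or 28.6%, had at least 1 gained region, where 33.0% of all genes had one. A lost region stood at 2 members, or 3.57%, where 13.1% of all genes had one. The gained regions fell in 13 of the 39 joined loci and the lost regions in 2. Of the 19 gained regions, 9 lay inside a member, 3 within 1 kb of a member's end and 7 in the flanks. None lay within 1 kb of the end of another gene, and 1 lay inside one. Gained regions were 276 to 676 bp wide with a median of 374 bp, and their peaks had median percentiles of 37.5, 41.7 and 30.4 in knockout libraries 1 to 3. Regions called in all 6 libraries stood higher, at 64.3, 67.7 and 62.0 in knockout cells and 58.5, 60.4 and 53.9 in control lists. Among the 79 shared regions, every knockout width exceeded every control width at 19 (18.8% of all shared regions of the series) and fell short of every control width at 11 (14.0%), without scaling. Territories of 25 members hold another protein-coding gene and those of 25 overlap that of another member, so a region need not belong to the member it is counted for.

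Related genes were read from a list of other serine proteases, inhibitors and targets, chosen with earlier results of these data known. Of 5 measured chymotrypsin and elastase genes 2 rose and 0 fell, with a median log2 fold change of 0.49. They were Ctrb1, a chymotrypsinogen gene (1386 ± 98 bp in knockout cells, against 502 ± 146 bp in control cells, SD, n = 3 each; log2 fold change 1.09 ± 0.15 SE, limma adjusted p = 0.0041), and the elastase gene Cela2a (0.59 ± 0.13, limma adjusted p = 0.022). Of 11 measured other membrane or circulating proteases 4 rose and 0 fell (median 0.13). Hpn, the gene of hepsin, a liver protease, had 2552 ± 313 bp in knockout cells, against 1137 ± 297 bp in control cells (SD, n = 3 each; log2 fold change 1.00 ± 0.15 SE, limma adjusted p = 0.0061). Plg, the plasminogen gene, had 0.74 ± 0.16 (limma adjusted p = 0.017), Htra1 0.74 ± 0.17 (limma adjusted p = 0.024) and Corin, which cleaves the precursor of a heart hormone, 0.23 ± 0.05 (limma adjusted p = 0.025). The tryptase genes Tpsb2 and Tpsg1 share the same peaks and so give 1 value, -0.05, which did not pass. Of 9 measured inhibitor genes 2 rose and 0 fell (median -0.03). They were the neuroserpin gene Serpini1 (0.70 ± 0.09, limma adjusted p = 0.0039) and Spint3 (0.42 ± 0.11, limma adjusted p = 0.036). Spink4 was listed at 0 bp in all 6 libraries. Of 6 measured target genes 2 fell and 0 rose (median -0.04). They were the protease-activated receptor gene F2rl1 (-0.31 ± 0.09, limma adjusted p = 0.041) and the sodium channel gene Scnn1a (-0.23 ± 0.06, limma adjusted p = 0.038). The target gene F2rl3 was below the minimum for the fit. It had 278 ± 7.3 bp in knockout cells (SD, n = 3), 0 bp in control cells and 1 gained region. The shares of all genes called were 7.57% higher and 14.6% lower, with a median of -0.09. At an unadjusted p under 0.05 limma gave 3 higher and 0 lower chymotrypsin and elastase genes, 4 higher and 1 lower other proteases, 3 higher and 2 lower inhibitors, 0 higher and 2 lower targets, and 0 tryptases. No share of all genes was counted at this unadjusted threshold, so nothing is read from these unadjusted counts.

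Markers of other cells were read beside these values. Summed scaled covered length of 12 acinar genes was 11770 to 12920 bp in knockout cells, against 9073 to 11120 bp in control cells, with 2 of 7 measured genes higher (Ctrb1 and Cela2a) and 0 lower. Of 6 duct genes 0 were higher and 1 lower (15630 to 18620 bp in knockout and 16880 to 19370 bp in control). Of 6 α- and δ-cell genes 0 were higher and 3 lower (7104 to 7696 bp in knockout and 10110 to 10340 bp in control). Of 8 leukocyte and mast cell genes 6 were measured, 2 higher and 1 lower (11750 to 13230 bp in knockout and 10050 to 11720 bp in control), and the mast cell genes Cpa3 and Mcpt4 were listed at 0 bp in all 6 libraries. Of 5 endothelial and mesenchymal genes 1 was higher and 0 lower (12540 to 13250 bp in knockout and 10660 to 11240 bp in control). The part of other cells in the values of the protease genes was not tested. Of the 10 β-cell genes 0 were higher and 2 lower, Ins1 and Mafa, by the limma fit. Among all genes 7.57% were higher and 14.6% lower in that fit. These shares stand beside the counts of every marker list, and the counts were not tested against them. At an unadjusted p under 0.05 limma had 2 acinar genes higher and 1 lower, 1 duct gene higher and 1 lower, 0 α- and δ-cell genes higher and 3 lower, 3 leukocyte genes higher and 1 lower, 1 endothelial and mesenchymal gene higher and 0 lower, and 0 β-cell genes higher and 5 lower. Here too the share of all genes was not counted, so nothing is read from these unadjusted counts.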

How the data were processed

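Each library has its own peak list, deposited by the authors. Per the names inside the deposited files, peaks came from MACS2 on shifted cutting sites, and per the submitters' processing notes the genome was mm10. The labels used here name no caller version, aligner or read filter. The deposited lists give a score (a whole number close to 10 times the −log10 q), the fold over background as a ratio, and the −log10 of p and of q, every peak passing q = 0.05. These values per peak are the authors' and were used only to rank peaks within a list. No list holds read counts.

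Genes were protein-coding genes of RefSeq GRCm38.p6, whose table gives spans without exons. Covered length in the span plus 10 kb was scaled to the mean library total, 300 bp were added, log2 was taken, and genes with an unscaled mean of at least 300 bp were fitted with limma 3.58.1 (intensity trend) in R 4.3.3. Fold changes on this scale understate changes of genes with few peaks. The fit was tested on simulated data. P-values measure the spread between libraries, which may be technical, since no label says that libraries came from separate animals. Named members had a gained or lost region or groups that did not overlap. Members, lists and tests were chosen with earlier results of these data known. A planned search of protein sequences was not run.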

Additional observations from a re-analysis of the deposited data

How the results depend on the processing

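Without scaling 17 members were higher in the limma fit in place of 9, and with the 50000 strongest peaks 5. The 9 called genes remained called under both pseudocounts and a −log10 q of at least 3, and 2 of them with the 50000 strongest peaks. Flanks of 2 kb gave 10 higher members, with 8 of the 9 among them. Flanks of 50 kb gave 8 higher members, with 5 of the 9 among them. In place of 0, the number of lower members was 1 (Prss8) with a pseudocount of 1000 bp or with a −log10 q of at least 3. It was 2 (Tmprss2 and Tmprss6) with the 50000 strongest peaks and 2 (Prss16 and Prss22) with flanks of 2 kb. With flanks of 50 kb it was 4 (Prss16, Prss36, Prss39 and Prss48). Leaving out 1 library gave 3 to 8 higher and 0 to 1 lower members, 20 to 24 gained regions where all libraries gave 19, 2 to 4 lost regions, 79 to 82 shared regions and a log2 ratio of summed covered length of 0.12 to 0.16. The 3 was reached without knockout library 1 and without knockout library 2, and the 4 lost regions without control library 1. With the 50000 strongest peaks 7 regions were gained, 4 lost and 30 called in all 6 libraries. Flanks of 2 kb gave 1 lost region, and flanks of 50 kb 43 gained, 10 lost and 215 shared regions. The log2 ratio of 0.14 for summed covered length was 0.11 with 2 kb, 0.014 with 50 kb and 0.31 without scaling. Among members whose groups did not overlap, signs turned at Prss40 (-0.30 with 2 kb, -0.089 with 50 kb), Prss8 (0.14 with the 50000 strongest peaks), Prss54 (0.032 without scaling, 0.031 with the 50000 strongest peaks), Tmprss13 (-0.52) and Tmprss6 (-0.28) with the 50000 strongest peaks, Prss33 (-0.056) and Prss41 (-0.047) with 50 kb, and Prss22 (-0.33 with the 50000 strongest peaks, -0.45 with 2 kb, -0.14 with 50 kb). Fewer peaks or other flanks change which regions a gene holds, and the cause was not tested further. Signs also turned at members whose groups overlapped: Prss12 (-0.317 with the 50000 strongest peaks), Tmprss11d (-0.012 with 2 kb), Prss35 (-0.167 with 50 kb, -0.001 with the 50000 strongest peaks), Tmprss2 (0.075 without scaling), Prss36 (0.134 without scaling, 0.238 with 2 kb, 0.004 without control library 3, 0.042 without knockout library 3) and Prss16 (0.066 without scaling, 0.081 with the 50000 strongest peaks, 0.015 without control library 1). Of 376 fold changes of named members under alternatives, 24 had the opposite sign. With the replicate number as a block 7 members were higher and 0 lower, Prss46 and Tmprss9 not being called. The correlations of same-numbered deviations were 0.13, 0.093 and -0.027, not all over 0.1, and knockout library 3 did not correlate best with its own number. The labels do not say whether libraries of one number share a day or batch, and they were treated as unpaired. Read depth is unknown and limits every count of regions.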
